A study of Mus musculus with 4 samples.

Results

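Mesenchymal cells hold their identity through a small set of transcription factors, and 10 genes of 5 such families are described here in cultured mouse bone marrow stroma with and without Asxl1. The genes were Prrx1 and Prrx2, Twist1 and Twist2, Snai1 and Snai2, Zeb1 and Zeb2, and Foxc1 and Foxc2. They were taken by symbol from the deposited expression table, where each had 1 row, so that 10 of 23997 genes in the table are described. RNA was sequenced in 2 libraries from Asxl1-/- mesenchymal stem/progenitor cells (MSPC), stromal cells of fibroblast shape that grow out of marrow, and in 2 libraries from wild-type (WT) MSPC. All 4 came from mice of C57BL/6 background, and the labels name no other allele or agent. They put the cells at passages 5 to 10, in MesenCult medium with 20% supplement. The title of each library carries its own number, but no label says what the number stands for or names an animal. Every p-value therefore reflects the spread of these samples alone, which may be that of animals, of cultures or technical. Asxl1 encodes a chromatin protein that partners the BAP1 histone deubiquitinase, and the title of the series asks what its loss does to self-renewal and cell fate.

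The 5 families belong to several classes of DNA-binding protein. Prrx proteins are paired-type homeodomain factors of limb and skull mesenchyme, and Prrx1 marks skeletal progenitors of the limb. Twist proteins are basic helix-loop-helix factors that pair with E proteins, while Snail and Zeb proteins are zinc finger repressors that bind E-boxes, among them those of the E-cadherin gene Cdh1. Forkhead box C proteins pattern mesoderm, and mouse Foxc1 is needed in the marrow for the CXCL12-rich stromal cells that house blood stem cells.

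Promoter sequences are shown for 4 of the genes, namely the 3 with the smallest p-values among those lower in Asxl1-/- cells, Prrx2, Snai1 and Twist1, and Prrx1 as the paralog of Prrx2. Each is the 250 bases before the RefSeq transcription start (build GRCm38.p6, the sequence of mm10), written 5′ to 3′ on the strand of the gene. Capitals mark the E-box CACCTG, which reads CAGGTG on the other strand and is the site that Snail and Zeb proteins are known to prefer.
Prrx1, chr1:163313651-163313900, minus strand: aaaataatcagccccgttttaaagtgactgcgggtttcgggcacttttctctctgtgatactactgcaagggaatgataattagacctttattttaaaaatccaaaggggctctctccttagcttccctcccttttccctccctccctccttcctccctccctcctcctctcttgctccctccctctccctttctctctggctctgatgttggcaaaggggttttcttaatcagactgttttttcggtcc
Prrx2, chr2:30845117-30845366, plus strand: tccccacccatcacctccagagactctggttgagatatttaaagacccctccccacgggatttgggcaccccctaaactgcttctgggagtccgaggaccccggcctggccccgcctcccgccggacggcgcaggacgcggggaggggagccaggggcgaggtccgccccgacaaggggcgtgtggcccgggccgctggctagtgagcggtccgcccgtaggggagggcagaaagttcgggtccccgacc
Snai1, chr2:167537945-167538194, plus strand: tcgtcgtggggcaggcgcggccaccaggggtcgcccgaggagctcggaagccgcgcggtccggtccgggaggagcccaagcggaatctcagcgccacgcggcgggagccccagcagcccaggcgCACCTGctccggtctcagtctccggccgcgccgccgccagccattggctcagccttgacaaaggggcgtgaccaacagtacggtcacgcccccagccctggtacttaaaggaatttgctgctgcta
Twist1, chr12:33957421-33957670, plus strand: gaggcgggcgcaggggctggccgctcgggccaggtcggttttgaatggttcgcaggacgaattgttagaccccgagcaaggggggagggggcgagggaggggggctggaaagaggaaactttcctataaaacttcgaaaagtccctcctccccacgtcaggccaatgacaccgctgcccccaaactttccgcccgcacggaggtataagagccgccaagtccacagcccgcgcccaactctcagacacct

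Promoter windows of 7 of the 10 genes were examined, namely these 4 and Twist2, Foxc1 and Zeb2. Those of Snai2, Zeb1 and Foxc2 were not. The E-box CAGGTG or CACCTG stood in the Snai1 window only, once, starting 126 bases before the start site, and it was also the only CANNTG in the 7 windows. Of 32851 RefSeq promoter windows of the same length, 17.2% held CAGGTG or CACCTG on either strand, and 66.2% held CANNTG, a wider pattern that includes them. CpG dinucleotides numbered 29 in the Foxc1 window, 27 in Snai1, 23 in Twist2, 21 in Prrx2 and 18 in Twist1, against a median of 6 over all windows. The Prrx1 window held 4 and the Zeb2 window 6. The paralogs Prrx1 and Prrx2 thus differ in base composition at the start site, with 47.6% and 70.0% G and C.

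Levels are given as FPKM, fragments scaled to transcript length and to mapped fragments, which allows genes to be set side by side. In Asxl1-/- the FPKM of all rows summed to 553089 and 497340, in WT to 563749 and 703730, and the read number per library is unknown. Asxl1 itself (chromosome 2, 153346139 to 153404007 in mm10) had 0.273 and 0.312 FPKM in Asxl1-/- against 14.6 and 11.2 FPKM in WT, so all 4 libraries followed their labels. Stromal markers, 11 genes, summed to 7069 and 4934 FPKM in Asxl1-/- and to 5100 and 7675 in WT. Vim, Col1a1 and Col1a2 gave most of each sum. Nt5e and Eng lay under 1 FPKM in both Asxl1-/- libraries, and Eng also in WT replicate 2. Pdgfra stood at 58.8 and 63.0 FPKM in Asxl1-/- and at 80.9 and 4.78 FPKM in WT. Macrophage markers, 13 of 14 found, summed to 86.7 and 381 FPKM in Asxl1-/- replicates 1 and 2 and to 7.47 and 558 in WT replicates 1 and 2. In Asxl1-/- replicate 1, Fcer1g alone gave 72.2 of that sum. Endothelial markers, 8 of 8 found, summed to between 2.26 and 9.29 FPKM, and Emcn and Tie1 were listed at 0 in every library. Markers of red and B lymphoid cells reached at most 0.412 FPKM in sum. In bulk RNA, fewer cells of a type and less RNA per cell cannot be told apart.

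Of the 10 genes, 9 had at least 1 FPKM in every library, and Foxc2 lay under 1 FPKM in Asxl1-/- replicate 2 and WT replicate 2. The order of mean levels over the 4 libraries was Prrx1 at 170.2 FPKM, Prrx2 at 60.5, Snai2 at 39.2, Snai1 at 25.03, Zeb1 at 21.1, Foxc1 at 18.7, Twist1 at 17.2, Twist2 at 10.4, Zeb2 at 10.1 and Foxc2 at 2.196. Prrx1 exceeded the mean of 96.7% of the 11481 genes tested and Foxc2 that of 10.3%. Of the 9 neighbouring pairs in this order, 8 had ranges over libraries that overlapped, so the ranges alone do not fix their order. Zeb2 and Foxc2 were the exception, with 7.14 to 12.8 FPKM and 0.254 to 6.46 FPKM. Compared within libraries, Snai2 stood above Snai1 in 4 of 4, the only overlapping pair that kept its order in all of them. WT replicate 1 held the highest value of 6 of the 10 genes, and Asxl1-/- replicate 2 the lowest of 4.

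**Figure D1:**
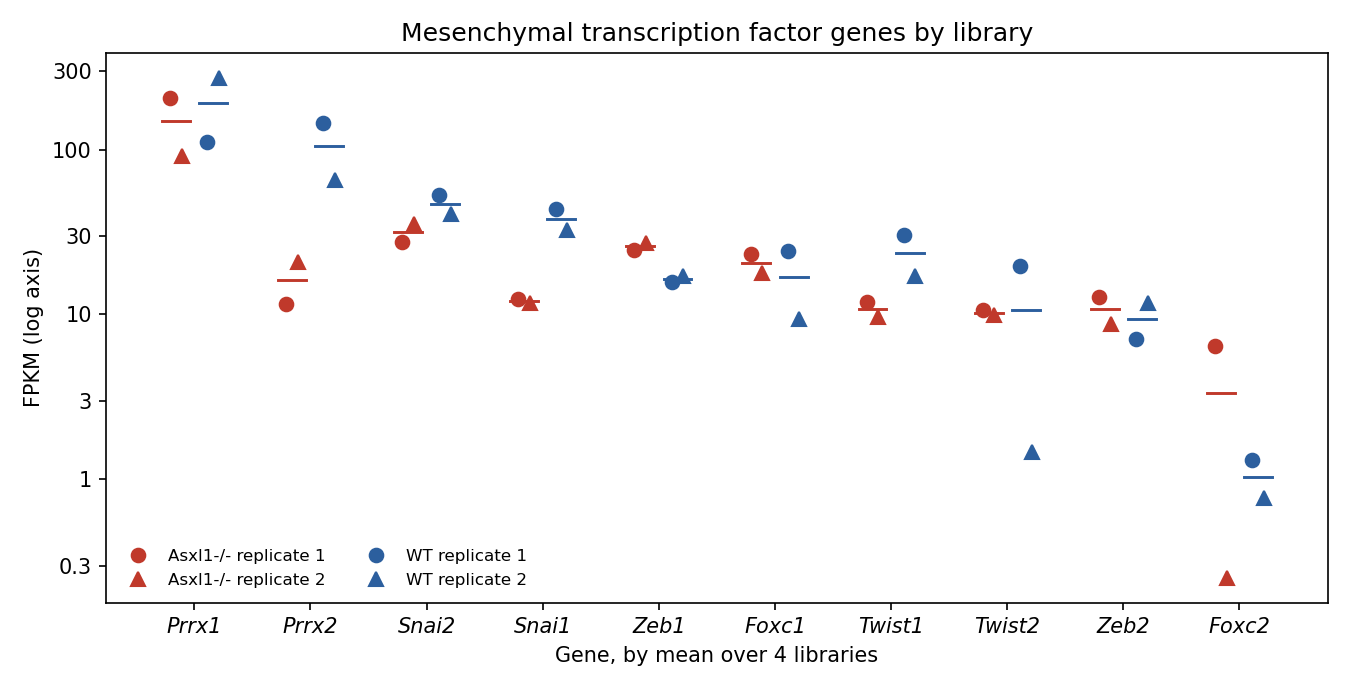
FPKM (log axis) of the 10 genes in each library, ordered by mean level. Red symbols are the 2 Asxl1-/- libraries and blue symbols the 2 WT libraries (circles, replicate 1; triangles, replicate 2), and short bars are group means. The red symbols lie below the blue for Prrx2, Snai1, Snai2 and Twist1 and above them for Zeb1, and mix with them for the other 5 genes.

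The comparison of Asxl1-/- with WT asked whether these factors change when Asxl1 is lost. Genes were tested with limma on log2(FPKM + 1), with p-values adjusted over the 11481 genes that averaged 1 FPKM or more, and fold changes are on that scale and understate those of low genes. All 10 genes entered, and 0 passed the adjusted threshold of 0.05, where 0 genes of the table were called higher (0%) and 3 lower (0.0261%). Snora15, Snora47 and Snora69, which encode small nucleolar RNAs and are named with their values known, made up these 3. Asxl1 itself was not called either, at a log2 fold change of -3.41, with a limma p of 0.000131 and 0.215 after adjustment. A gene that was not called may therefore still differ. At an unadjusted p under 0.05 there were 3 of the 10 lower (Prrx2, Snai1 and Twist1) and 1 higher (Zeb1), against 5.41% and 2.51% of all genes tested. Groups without overlap were found for 4 genes lower in Asxl1-/- (Prrx2, Snai1, Snai2 and Twist1) and 1 higher (Zeb1), where the shares of all genes tested were 25.2% and 15.6%. The median log2 fold change of the 10 was -0.07, and that of all genes tested was -0.07. Fold changes were negative for 5 genes and positive for 5.

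**Figure D2:**
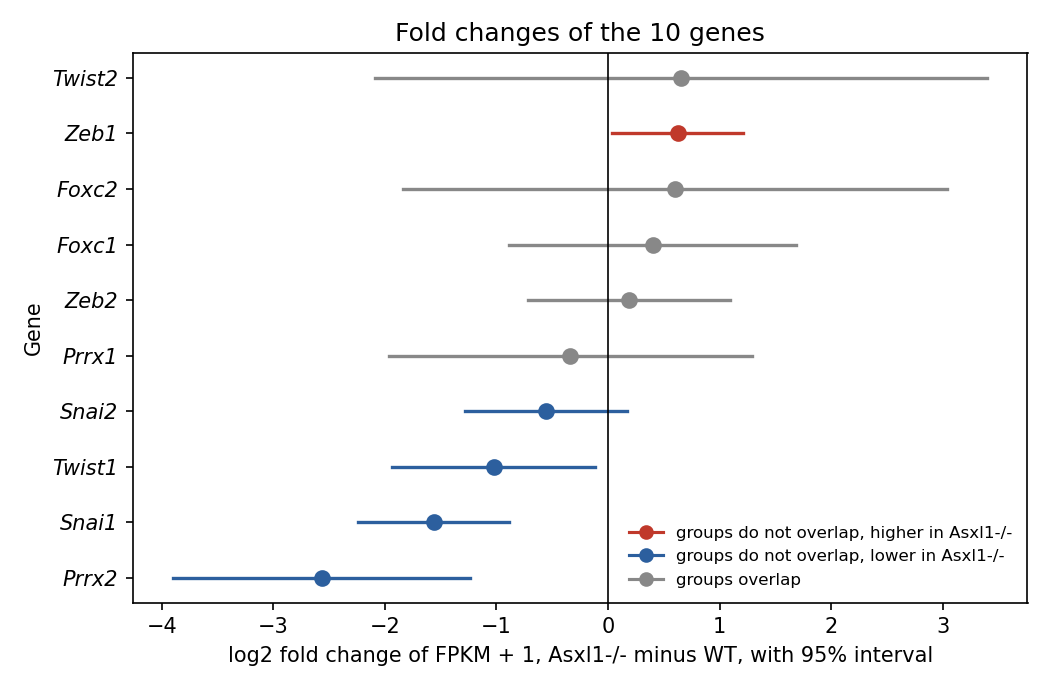
Log2 fold change of FPKM + 1, Asxl1-/- minus WT, for the 10 genes, each point with its 95% interval from limma. Colours mark whether the 2 Asxl1-/- libraries both lay above (red) or below (blue) the 2 WT libraries or overlapped them (grey). The values run from -2.56 for Prrx2 to 0.65 for Twist2, and the intervals of Prrx2, Snai1 and Twist1 lie below 0 and that of Zeb1 above it.

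The Prrx pair held the gene with the largest difference. Prrx2 (chromosome 2, 30845367 to 30881247 in mm10) stood at 11.6 and 20.8 FPKM in Asxl1-/- and at 144 and 65.3 FPKM in WT. Both Asxl1-/- libraries were therefore below both WT libraries, although the WT libraries themselves differed 2.21-fold. Means were 16.2 ± 6.48 FPKM in Asxl1-/- and 104.8 ± 55.8 FPKM in WT (SD, n = 2 each), 6.46 times as high in WT. Prrx2 had a log2 fold change of -2.56 (standard error, SE, 0.50; 95% interval, -3.89 to -1.23). Its limma p was 0.00483 before adjustment, smaller for 106 of the genes tested, and 0.502 after it. In the authors' deposited table, made with Cuffdiff, Prrx2 is the only gene of the 10 marked significant, at 20.4 FPKM in Asxl1-/- and 120 FPKM in WT, at a log2 fold change of -2.56 and q = 0.0307. That table marks 0.396% of the genes it tested as lower and 0.543% as higher, and its values come from the same libraries.

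Its paralog Prrx1 (chromosome 1, 163245119 to 163313650), the most abundant of the 10, gave no separation. Prrx1 stood at 207 and 91.1 FPKM in Asxl1-/- and at 111 and 272 FPKM in WT, so that each group had a high and a low library. Prrx1 had a log2 fold change of -0.34 (SE 0.62), and its 95% interval of -1.97 to 1.29 allows a change in either direction (limma adjusted p = 0.900). Within each group its libraries differed more than those of 91.1% of the genes tested in Asxl1-/- and of 91.3% in WT. Prrx1 made up 94.7% and 81.4% of the FPKM sum of the pair in Asxl1-/- and 43.6% and 80.6% in WT. WT replicate 1 was thus the only library in which Prrx2 exceeded Prrx1, and Asxl1-/- replicate 2 and WT replicate 2 had nearly the same balance. The difference in share was 25.9 percentage points, and it was 7.42 points without WT replicate 1. In an exact two-sided permutation test of 2 against 2 libraries the smallest p is 0.333, and it was reached here (0.556 adjusted over the 5 pairs).

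Snai1 (chromosome 2, 167538227 to 167542811), whose product represses Cdh1, stood at 12.4 and 11.7 FPKM in Asxl1-/- and at 43.5 and 32.5 FPKM in WT. Both Asxl1-/- values lay below both WT values, and the libraries differed 1.05-fold within Asxl1-/- and 1.34-fold within WT. The mean was 12.1 ± 0.455 FPKM in Asxl1-/- and 38.0 ± 7.81 FPKM in WT (SD, n = 2 each), 3.15 times as high in WT. Its log2 fold change was -1.56 (SE 0.25; 95% interval, -2.24 to -0.89). The limma p of 0.00225 for Snai1 was the smallest of the 10, undercut by 52 of the genes tested, and was 0.474 after adjustment. In the authors' deposited table Snai1 has -1.53 as its log2 fold change with q = 0.203, and is not marked.

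Snai2 (chromosome 16, 14705859 to 14709382), which encodes the related repressor Slug, stood at 27.5 and 35.4 FPKM in Asxl1-/- and at 53.0 and 40.7 FPKM in WT. The groups did not overlap, but the gap between the nearest libraries was small. For Snai2 this gave a log2 fold change of -0.56 (SE 0.27; 95% interval, -1.28 to 0.17) and a limma adjusted p of 0.649. Genes of chromosome 16 as a whole had a median log2 fold change of -0.21, and with the chromosome medians of each library removed Snai2 stood at -0.34. For the other chromosomes that hold the 10 genes the medians lay between -0.23 (chromosome 8) and 0.09 (chromosome 1). Snai1 held 31.0% and 24.9% of the FPKM sum of the pair in Asxl1-/- and 45.1% and 44.4% in WT. This was the pair whose share varied least within WT, with 28.0% ± 4.33 in Asxl1-/- and 44.7% ± 0.511 in WT (SD, n = 2 each), and its exact permutation p was again the smallest possible, 0.333 (0.556 adjusted). The same p was reached for the Twist pair, whose difference in the Twist1 share of -25.2 percentage points was -9.34 without WT replicate 2 and -41.0 with only WT replicate 2 kept, and the exact p was 0.667 for the Zeb pair and 1.0 for the Foxc pair. The FPKM sum of Snai1 and Snai2 was 39.9 and 47.2 in Asxl1-/- and 96.5 and 73.2 in WT.

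Twist1 (chromosome 12, 33957671 to 33959831), needed in the mouse for cranial neural tube and mesoderm, stood at 11.9 and 9.67 FPKM in Asxl1-/- and at 30.1 and 17.2 FPKM in WT. Both Asxl1-/- libraries were lower than both WT libraries. The means were 10.8 ± 1.55 FPKM in Asxl1-/- and 23.7 ± 9.14 FPKM in WT (SD, n = 2 each). On the log2 scale Twist1 differed by -1.02 (SE 0.34), with a limma p of 0.0346 and a limma adjusted p of 0.605. Without WT replicate 1 it was -0.64. In the authors' deposited table the log2 fold change of Twist1 is -1.01 with q = 0.754.

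Twist2 (chromosome 1, 91801477 to 91848027), also known as Dermo1, behaved in another way. Its level was 10.6 and 9.89 FPKM in Asxl1-/- and 19.7 and 1.46 FPKM in WT, so both Asxl1-/- libraries lay between the WT libraries. The WT libraries differed 13.5-fold, more than those of 98.8% of the genes tested on the log2 scale, while the Asxl1-/- libraries differed 1.07-fold. Twist2 had a log2 fold change of 0.65 (SE 1.04; 95% interval, -2.09 to 3.40), and it was 2.19 without WT replicate 1 and -0.88 without WT replicate 2. The mean FPKM of Twist2 was 10.2 in Asxl1-/- and 10.6 in WT, a difference of the opposite sign. In the authors' deposited table Twist2 has a log2 fold change of 0.11 with q = 0.999. Twist1 held 52.9% and 49.4% of the FPKM sum of the pair in Asxl1-/- and 60.5% and 92.2% in WT. In GENCODE the antisense gene Gm29100 shares 1477 exon bases with Twist2, and since the sources used here give no strandedness, reads of both cannot be told apart.

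Zeb1 (chromosome 18, 5591860 to 5775468), which encodes a repressor with 2 zinc finger clusters, was the only one of the 10 with both Asxl1-/- libraries above both WT libraries. It stood at 24.5 and 27.2 FPKM in Asxl1-/- and at 15.8 and 17.1 FPKM in WT. The libraries differed 1.11-fold within Asxl1-/- and 1.08-fold within WT. Means were 25.9 ± 1.92 FPKM in Asxl1-/- and 16.4 ± 0.914 FPKM in WT (SD, n = 2 each), 1.58 times as high in Asxl1-/-. Zeb1 had a log2 fold change of 0.63 (SE 0.22; 95% interval, 0.04 to 1.21). Its limma p was 0.0413, and 0.615 when limma adjusted it over all genes. In the authors' deposited table Zeb1 is listed with a log2 fold change of 0.77, q = 0.824.

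Zeb2 (chromosome 2, 44983512 to 45113279), its paralog, is also expressed in macrophages. It stood at 12.8 and 8.80 FPKM in Asxl1-/- and at 7.14 and 11.7 FPKM in WT, and the groups overlapped. Its log2 fold change was 0.19 (SE 0.34; 95% interval, -0.72 to 1.10; limma adjusted p = 0.899). Beside these values the macrophage markers summed to 86.7, 381, 7.47 and 558 FPKM in the same order of libraries, so the highest Zeb2 value and the highest marker sum were in different libraries, while the lowest of both were in WT replicate 1. Fcer1g alone gave 72.2 of the 86.7 FPKM in Asxl1-/- replicate 1, the library with the highest Zeb2 value, and Lyz2 stood at 2.36 FPKM there. The part of macrophage RNA in the Zeb2 level was not tested. Zeb1 held 65.8% and 75.6% of the FPKM sum of the pair in Asxl1-/- and 68.8% and 59.3% in WT, which overlapped. Zeb2os, an antisense gene, shares 653 exon bases with Zeb2, and Gm10125 on the opposite strand shares 198 with Zeb1.

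Foxc1 (chromosome 13, 31806646 to 31810635) stood at 23.4 and 17.7 FPKM in Asxl1-/- and at 24.2 and 9.41 FPKM in WT. Both Asxl1-/- libraries lay between the WT libraries. Foxc1 had a log2 fold change of 0.40 (SE 0.49; 95% interval, -0.89 to 1.69; limma adjusted p = 0.858). Foxc2 (chromosome 8, 121116171 to 121118894), best known from lymphatic and heart development, was the least abundant gene and rested on a single library. It stood at 6.46 and 0.254 FPKM in Asxl1-/- and at 1.30 and 0.769 FPKM in WT, so the Asxl1-/- libraries differed 25.5-fold and enclosed both WT values. The fitted log2 fold change for Foxc2 was 0.60 (SE 0.92; 95% interval, -1.84 to 3.03), and it was 1.89 without Asxl1-/- replicate 2 and -0.69 without Asxl1-/- replicate 1. In the authors' deposited table Foxc2 is listed at a log2 fold change of 1.82, with p = 0.039 and q = 0.620. Foxc1 held 78.3% and 98.6% of the FPKM sum of the pair in Asxl1-/- and 94.9% and 92.4% in WT.

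**Figure D3:**
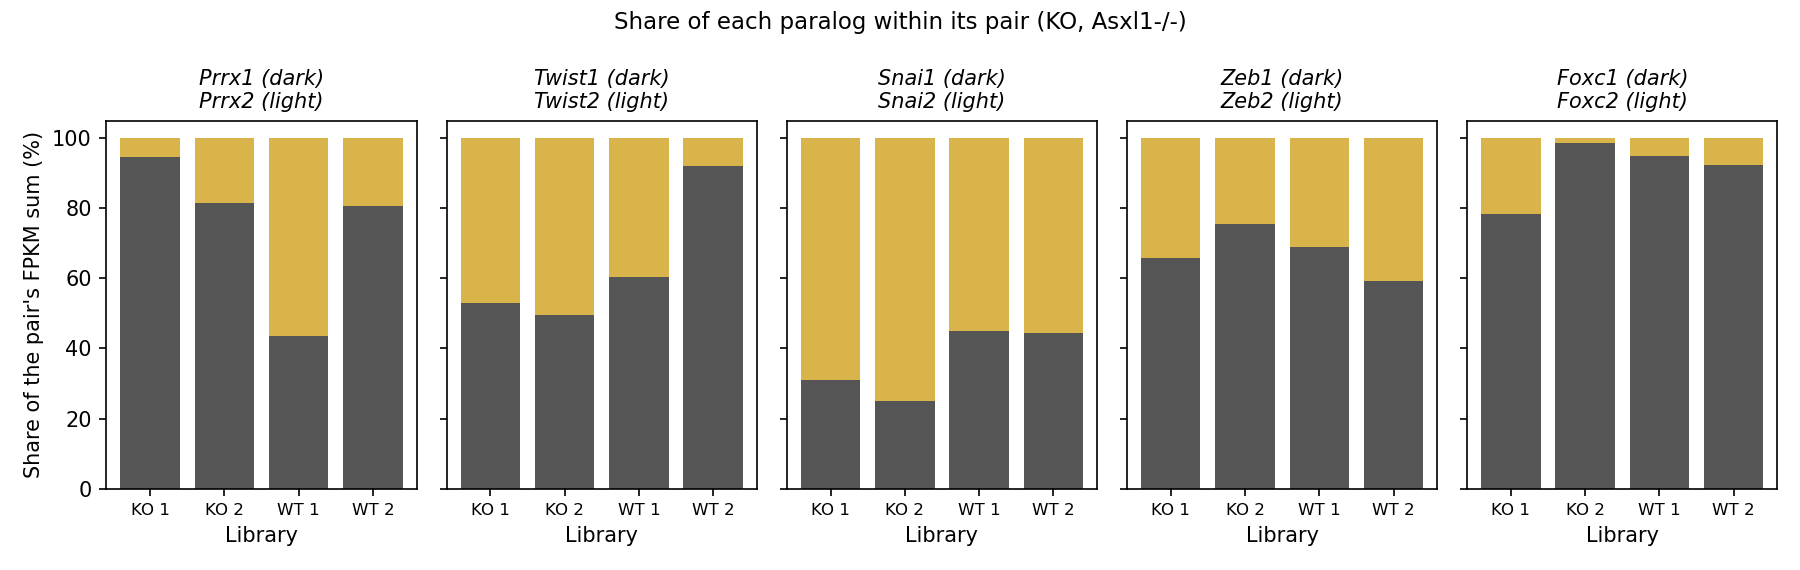
Share of each paralog in the FPKM sum of its pair (percent), 1 bar per library, with the first gene named above each panel dark and the second light (KO, Asxl1-/-). Prrx1 holds the larger share in every library but WT replicate 1, and the Snai1 share is 31.0% and 24.9% in Asxl1-/- and 45.1% and 44.4% in WT.

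Partners and targets of the factors were examined as lists. The E proteins, with which Twist proteins pair, and the Id proteins that sequester them gave 0 of 7 genes called by limma, 0 with an unadjusted p under 0.05 and 0 with groups that did not overlap. Their log2 fold changes had a median of 0.10. Among all genes tested 25.2% lay lower and 15.6% higher in both Asxl1-/- libraries, and at an unadjusted p under 0.05 these shares were 5.41% and 2.51%. The median of this list changed sign with the library left out, from -0.62 without WT replicate 2 to 0.51 without Asxl1-/- replicate 1. Id2 stood at 8.01 and 42.4 FPKM in Asxl1-/- and at 52.6 and 30.4 FPKM in WT, and the E protein gene Tcf4 at 32.5 and 79.4 FPKM in Asxl1-/- and 43.97 and 20.1 FPKM in WT. Tcf3 stood at 26.6 and 29.6 FPKM in Asxl1-/- and 43.6 and 29.3 FPKM in WT, and Tcf12 at 31.1 and 35.7 in Asxl1-/- and 23.1 and 37.0 in WT. The groups overlapped for each of them. Among corepressors recruited by Snail and Zeb factors 0 of 10 were called by limma and 0 had an unadjusted p under 0.05, with a median of -0.07, and Rcor1 and Sin3a lay lower in both Asxl1-/- libraries than in both WT libraries. Without WT replicate 1 that median was 0.11. Rcor1, a subunit of the CoREST complex, stood at 13.3 and 14.0 FPKM in Asxl1-/- and 16.9 and 19.4 FPKM in WT, and the histone demethylase gene Kdm1a at 14.4 and 11.5 in Asxl1-/- and 18.1 and 14.2 in WT. Sin3a stood at 11.5 and 10.6 FPKM in Asxl1-/- and 12.5 and 13.1 FPKM in WT, and the LIM protein gene Limd1 at 14.4 and 9.02 in Asxl1-/- and 6.69 and 9.93 in WT.

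Epithelial genes, which Snail and Zeb proteins are known to repress, were near absent in both genotypes. Of 16 such genes 15 had a mean under 1 FPKM and were not tested, with 0.631 FPKM as the highest value in any library, and 4 of these were listed at 0 throughout. Cdh1 was listed at 0 in Asxl1-/- replicate 1 and had 0.0189 FPKM in Asxl1-/- replicate 2, against 0.207 and 0.0275 FPKM in WT. The keratin gene Krt19 was the exception, at 74.7 and 0.381 FPKM in Asxl1-/- and 0.596 and 3.63 FPKM in WT. Its high value was in Asxl1-/- replicate 1 alone, and Krt8 was listed at 0 there.

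Mesenchymal effector genes gave 0 of 14 called by limma (1 lower at an unadjusted p under 0.05, Fn1), 2 with both Asxl1-/- libraries above WT (Col3a1 and Pdgfrb) and 2 below (Fn1 and Col1a2), where all genes tested gave 15.6% above and 25.2% below. The median log2 fold change was -0.22, and 0.035 without Asxl1-/- replicate 1. Fibronectin, Fn1, stood at 833 and 1127 FPKM in Asxl1-/- and 1515 and 2048 FPKM in WT, a log2 fold change of -0.86 (limma adjusted p = 0.628). Col1a2 stood at 1178 and 1049 FPKM in Asxl1-/- and 1564 and 2284 FPKM in WT. Pdgfrb, a growth factor receptor of stromal cells, stood at 103 and 135 FPKM in Asxl1-/- and 86.9 and 49.2 FPKM in WT. Thy1 overlapped between the groups, at 114 and 33.7 FPKM in Asxl1-/- and 113 and 162 FPKM in WT.

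Further transcription factors of mesenchyme gave 18 tested genes of 26, of which limma called 0 (2 lower and 1 higher at an unadjusted p under 0.05). Both Asxl1-/- libraries lay below WT for 6 (Foxf2, Tbx15, Msx2, Osr1, Nfix and Shox2) and above it for Hic1, beside 25.2% and 15.6% of all genes tested. The median log2 fold change was -0.49, and -0.86 to -0.27 with 1 library left out. Shox2, a homeobox gene of the proximal limb, stood at 5.38 and 5.16 FPKM in Asxl1-/- and 19.6 and 17.6 FPKM in WT, a log2 fold change of -1.64 (SE 0.22; limma adjusted p = 0.398). Hic1, a repressor found in quiescent mesenchymal progenitors, stood at 19.1 and 14.5 FPKM in Asxl1-/- and 7.21 and 7.37 FPKM in WT (limma adjusted p = 0.514). Osr1 stood at 23.8 and 13.2 FPKM in Asxl1-/- and 33.6 and 57.1 FPKM in WT, and Nfix at 37.1 and 56.3 in Asxl1-/- and 98.9 and 70.2 in WT. These lists were compared with the 10 factors by counts and medians, and no difference between lists was tested.

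Marrow stromal genes linked to Foxc1 gave 4 tested genes of 5, of which limma called 0, with 0 at an unadjusted p under 0.05 and a median of -0.51. Lepr was too low to be tested, at 0.0115 and 0 FPKM in Asxl1-/- and 0.0426 and 0 FPKM in WT. The median was 0.26 without Asxl1-/- replicate 2 and 0.30 without WT replicate 1. Leaving out WT replicate 2 gave -1.17. Cxcl12, the chemokine that retains blood stem cells, stood at 1297 and 947 FPKM in Asxl1-/- and 641 and 744 FPKM in WT, above WT in both libraries (limma adjusted p = 0.632). Vcam1 stood at 14.5 and 49.7 FPKM in Asxl1-/- and 57.3 and 58.8 FPKM in WT, below WT in both. Among all genes tested 15.6% lay above WT in this way and 25.2% below. The growth factor gene Kitl overlapped, at 20.0 and 10.6 FPKM in Asxl1-/- and 36.8 and 14.4 FPKM in WT. Ebf3 stood at 3.75 FPKM and was listed at 0 in Asxl1-/-, and stood at 7.25 FPKM and was listed at 0 in WT, so its high values were in the replicates 1.

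**Figure D4:**
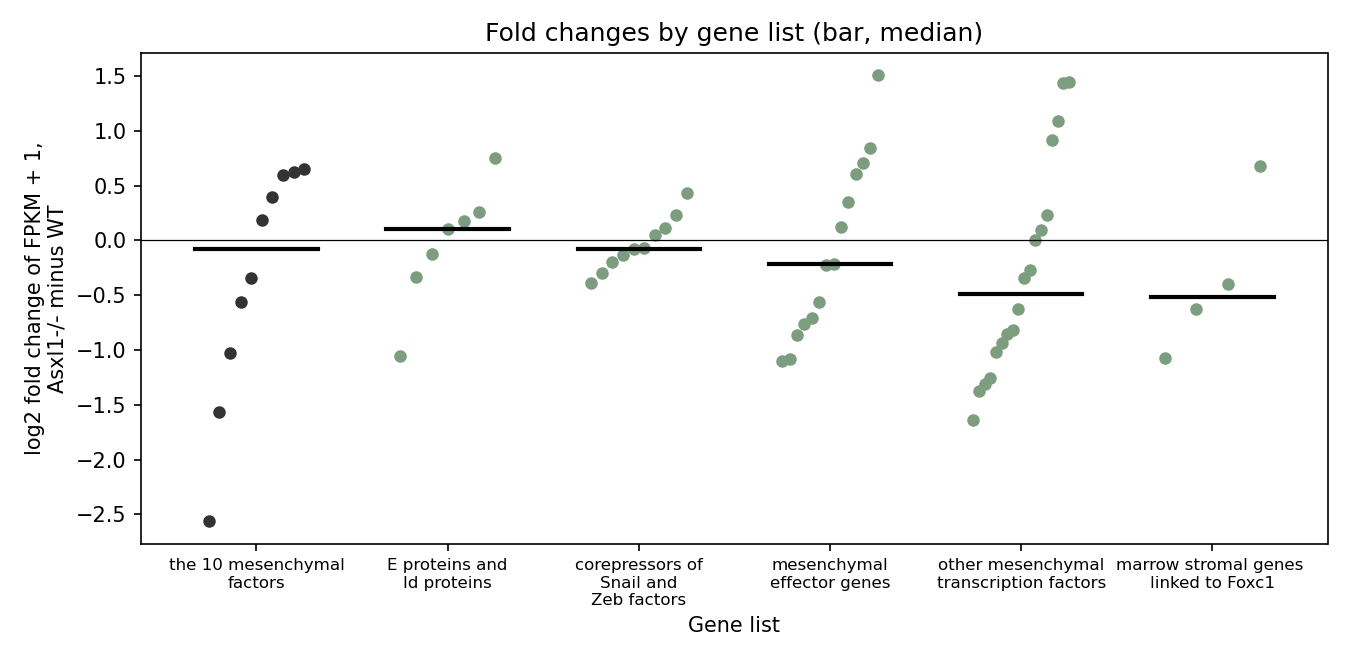
Log2 fold change of FPKM + 1, Asxl1-/- minus WT, of each tested gene by list, with the epithelial list, which had 1 tested gene, left out and 1 point per gene and a bar at the median. The medians are -0.07 for the 10 factors, 0.10 for E and Id proteins, -0.07 for corepressors, -0.22 for mesenchymal effectors, -0.49 for other mesenchymal transcription factors and -0.51 for stromal genes linked to Foxc1, and each list shown has points on both sides of 0.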

How the data were processed

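The submitters' processing notes name mm10 as the build and TopHat2 2.0.3, Cufflinks 2.2.1 and Cuffdiff as tools; the annotation, kit and strandedness are not given there or in the labels. The deposited table holds FPKM per gene and library. The authors' deposited Cuffdiff table gives FPKM and p-values and q-values per group, and the log2 ratio of Asxl1-/- to WT. The deposited log table repeats the FPKM and was not used. The FPKM and log tables each hold 2 columns, with a KO and a WT heading, that match no sample of the series. These 4 columns were not used. Starts are given with 1 added.

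For symbols with several rows the row with the highest mean was kept. Genes averaging 1 FPKM or more were fitted with limma 3.58.1 in R 4.3.3 (lmFit, eBayes with variance trend) on log2(FPKM + 1), adjusted by Benjamini-Hochberg at 0.05. The fit was first run on simulated data that gave every gene the same spread. Genes here differ in spread, so that run does not show how the fit performs on them. Replicates were numbered in accession order. All 10 factors are named, and of each list the 4 tested genes with the smallest p. The genes, lists and settings were chosen with earlier results of these data known; removal of chromosome medians was added after seeing the data. Promoters are from RefSeq. Without read counts, depth and counting error are unknown. Shares and tables were computed in Python (version 3.11.15).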

Additional observations from a re-analysis of the deposited data

How the results depend on the processing

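None of the 10 genes passed the adjusted limma threshold in any of 13 alternatives. Outside the fits that leave out a library, each kept the sign of its fold change under pseudocounts of 0.1 and 0.5, no filter, a filter at 5 FPKM (Foxc2 then left untested), median ratio scaling, quantile normalization, no variance trend, no genes under 300 bp and removal of chromosome medians (chosen after seeing the data). With 1 library left out, where the lone sample of a group is assumed to vary like the others, log2 fold changes spanned -3.13 to -2.00 for Prrx2, -1.77 to -1.36 for Snai1, -1.41 to -0.64 for Twist1, -0.74 to -0.37 for Snai2 and 0.55 to 0.70 for Zeb1. It changed sign for Prrx1 (-0.98 to 0.30), Twist2 (-0.88 to 2.19), Zeb2 (-0.13 to 0.51), Foxc1 (-0.24 to 1.04) and Foxc2 (-0.69 to 1.89), and among list genes for Id2 (-2.19 to 0.079), Tcf12 (-0.15 to 0.51), Krt19 (-0.98 to 4.80), Kitl (-1.28 to 0.018) and Ebf3 (-1.92 to 1.12). The median of the 10 ran from -0.53 (without Asxl1-/- replicate 1) to 0.34 (without Asxl1-/- replicate 2). The difference in the Foxc1 share of its pair ran from -15.3 to 4.93 percentage points, that in the Prrx1 share from 7.42 to 44.5, in the Twist1 share from -41.0 to -9.34, in the Snai1 share from -19.9 to -13.7 and in the Zeb1 share from 1.72 to 11.5. The cause was not tested. Genes called lower over the whole table numbered 3, 1 without the filter, 0 without genes under 300 bp and 1 to 6 with 1 library left out (4 and 1 without Asxl1-/- replicates 1 and 2, 6 and 5 without WT replicates 1 and 2). Genes called higher numbered 0, and 4 without Asxl1-/- replicate 1. No paired analysis was possible because replicate numbers follow accession order and pair no libraries.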

Other observations

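For 4 factors outside the 10 genes, picked after their values were seen for a difference between libraries of 1 genotype, the values were as follows. Other factors, such as Shox2, were close within genotype. The homeobox gene Meox2 was listed at 0 in Asxl1-/- replicate 1 and had 59.7 FPKM in Asxl1-/- replicate 2, against 16.1 FPKM in WT replicate 1 and a listing at 0 for WT replicate 2. Osr2 stood at 0.223 and 9.34 FPKM in Asxl1-/- and at 0.307 and 0.312 FPKM in WT. Foxd1 stood at 1.23 and 7.35 FPKM in Asxl1-/- and at 1.42 and 0.0344 FPKM in WT. Scx, a tendon factor, stood at 0.0813 and 0.876 FPKM in Asxl1-/- and at 6.49 and 0.808 FPKM in WT. The groups overlapped for each of these 4 genes.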
